A study of Mus musculus with 2 samples.

Results

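Pericytes were taken from single-cell RNA sequencing of mouse heart cells as barcodes that carried UMIs, that is counted transcript molecules, of at least 5 of 8 pericyte genes (Kcnj8, Abcc9, Vtn, Rgs5, Colec11, Steap4, Pdgfrb and Cspg4) and fewer than 3 UMIs of the smooth muscle myosin gene Myh11. Barcodes needed at least 500 detected genes and at most 10% of UMIs from mitochondrial genes. The rule found 252 of 9092 such barcodes, 107 of 4144 in the db/db and 1% salt library (below, db/db salt) and 145 of 4948 in the db/+ library. They were divided by the summed UMIs of 4 endothelial genes (Pecam1, Cdh5, Egfl7 and Cldn5). Sums below 4 made 86 purer pericytes, 39 db/db salt and 47 db/+, and sums of 4 or above made 166 mixed pericytes, 68 db/db salt and 98 db/+. The members were chosen by the measured UMIs of these genes, so the 8 pericyte genes, the 4 endothelial genes and Myh11 are described without a test.

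The db/db and 1% salt library came from db/db mice, in which both copies of the leptin receptor gene Lepr carry the db mutation, that also received 1% salt. The db/+ library came from db/+ mice, which carry 1 mutated copy and for which no treatment is labelled. Genotype and salt differed together and each group was 1 library, so the effects of genotype, salt and library cannot be told apart. The series states 4 male hearts per genotype. The labels give neither the route and duration of the salt, nor the age of the mice, nor whether hearts were pooled, and barcodes cannot be assigned to single hearts. Cardiomyocytes were depleted by filtering and CD45+ leukocytes by magnetic beads before loading, so both libraries lack most of these cells. No test between groups was possible. A gene is called higher or lower below where its CPM, the UMIs summed over the barcodes of a class and scaled to equal totals, differed at least 1.5-fold after 10 CPM were added to both values, and intervals are 95% exact intervals that cover counting error only.

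Pericytes lie on the outside of capillaries, within the basement membrane that they share with the endothelium, and heart muscle is rich in them. Endothelial PDGF-B, read by the receptor that Pdgfrb encodes, recruits and keeps them. Cardiac pericytes express an ATP-sensitive potassium channel made of a pore (Kcnj8) and a sulfonylurea receptor (Abcc9), which links the energy state of the tissue to membrane potential, and they respond to endothelin, angiotensin and purines. Because they cling to endothelium, dissociated cells of both kinds often stay together.

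The depth of the purer pericytes was low. They held 193970 UMIs in the db/db and 1% salt library, with a median of 4347 per barcode, and 212917 UMIs in the db/+ library, with a median of 4217. Mixed pericytes held 1264797 db/db salt and 1694536 db/+ UMIs, with medians of 16233 db/db salt and 15357 db/+, which exceeded the medians of a purer pericyte and an endothelial barcode added together (9979 db/db salt and 9847 db/+ UMIs). Scrublet, a doublet caller, marked 1 db/db salt and 5 db/+ of the mixed barcodes and none of the purer ones in both libraries. In the purer pericytes, 3 barcodes of the db/db and 1% salt library and 4 of the db/+ library held at least 100 UMIs of 10 fibroblast markers, with 767 db/db salt and 471 db/+ at the highest, while the others reached 20 db/db salt and 42 db/+. These 7 barcodes were unlike each other. The 3 db/db salt ones held 76 to 192 UMIs of the 8 pericyte genes beside 126 to 767 of the fibroblast markers, and the 4 db/+ ones 6 to 21 beside 150 to 471, below the 24 or more pericyte-gene UMIs of every other purer barcode. The 4 met the rule, which counts detected genes, but among these markers they carried mainly fibroblast transcripts. The fibroblast markers summed to 8924 db/db salt and 8449 db/+ CPM with those barcodes and to 2432 db/db salt and 2723 db/+ CPM without them. Values without the 7 are given beside genes whose call or direction they change. All 11 leukocyte markers, all 5 mesothelial and all 5 adipocyte markers were at 0 in purer pericytes of both libraries. Erythroid markers summed to 3678 UMIs in mixed pericytes of the db/db and 1% salt library, of which the highest single barcode held 1065 for Hbb-bs alone, against 13 UMIs in the db/+ library, and in purer pericytes to 2 db/db salt and 3 db/+ UMIs. The libraries shared 7 barcode sequences, none of them a pericyte in both. Lepr had 1 UMI in purer pericytes of the db/db and 1% salt library and 0 in those of the db/+ library. The 3' tags do not read the mutation, so this checks no label.

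Pericytes made up a similar share of both libraries. All pericyte barcodes were 2.58% (2.12 to 3.11) of the barcodes kept in the db/db and 1% salt library and 2.93% (2.48 to 3.44) of those kept in the db/+ library. Purer pericytes were 0.941% (0.670 to 1.28) of the db/db salt and 0.950% (0.699 to 1.26) of the db/+ barcodes. The mixed barcodes were 63.6% (53.7 to 72.6) of the pericytes in the db/db and 1% salt library and 67.6% (59.3 to 75.1) in the db/+ library. All 3 pairs of intervals overlapped. The endothelial limit fell in a sparse range: 28 db/db salt and 36 db/+ barcodes had no endothelial UMI, 1 db/db salt and 0 db/+ had 3, just inside the purer class, 1 db/db salt and 4 db/+ had 4 to 7, just outside it, and 61 db/db salt and 84 db/+ had 20 or more. At the marker limit, 12 db/db salt and 10 db/+ barcodes carried exactly 5 of the 8 genes, and 35 db/db salt and 31 db/+ carried 4 and were left out. The Myh11 limit removed 77 db/db salt and 99 db/+ barcodes with at least 5 pericyte genes.

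**Figure D1:**
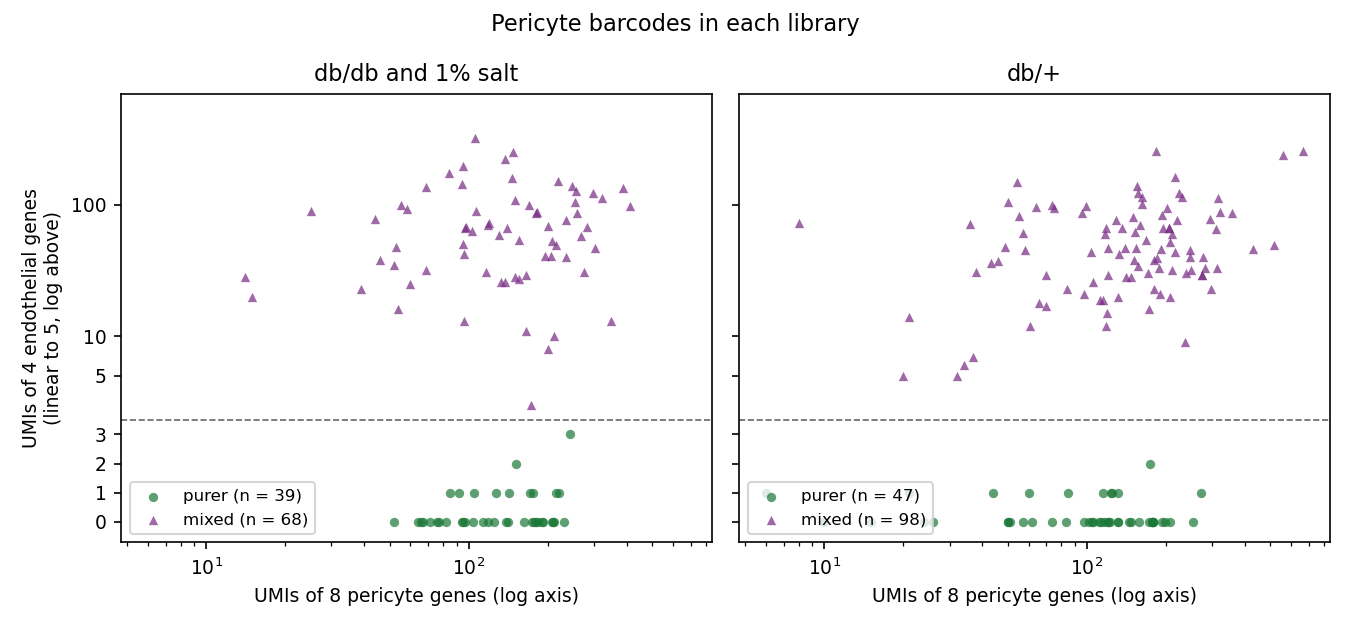
UMIs of the 4 endothelial genes (vertical axis, linear to 5 and logarithmic above) against UMIs of the 8 pericyte genes (logarithmic horizontal axis) for each pericyte barcode, with the db/db and 1% salt library on the left and the db/+ library on the right. Circles are purer and triangles mixed pericytes, and the dashed line is the limit; few barcodes lie near it in either library.

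All 8 genes of the rule were seen in 31 of 39 db/db salt and 33 of 47 db/+ purer barcodes. The rule itself required 5. Kcnj8, the channel pore, had 503 UMIs (2593 CPM, interval 2371 to 2830) in purer pericytes of the db/db and 1% salt library and 510 UMIs (2395 CPM, 2192 to 2612) in those of the db/+ library. Abcc9, its receptor subunit, had 536 UMIs (2763 CPM) in db/db salt and 607 UMIs (2851 CPM) in db/+. Both genes lie side by side on the minus strand of chromosome 6 in GRCm38, Kcnj8 at chr6:142564837-142571614 and Abcc9 at chr6:142587862-142702315, with 16247 bases between them. Single purer barcodes held 1, 11 and 29 Kcnj8 UMIs (lowest, median and highest) in the db/db and 1% salt library and 0, 10 and 33 in the db/+ library. In endothelial barcodes of the same libraries Kcnj8 was at 1.495 db/db salt and 1.537 db/+ CPM, and after thinning to 1500 UMIs it was seen in 0.0799% of db/db salt and 0.238% of db/+ endothelial barcodes, whereas 89.7% (75.8 to 97.1) of db/db salt and 84.4% (70.5 to 93.5) of db/+ purer pericytes carried it. Kcnj8 took part in choosing both classes, so this contrast follows from the rule. All 39 purer pericytes of the db/db and 1% salt library and 45 of 47 in the db/+ library were deep enough for this thinning.

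Of the other genes of the rule, Rgs5, a regulator of G protein signalling, had 2943 db/db salt and 2912 db/+ UMIs (15172 db/db salt and 13677 db/+ CPM). Vtn, which encodes vitronectin, had 437 db/db salt and 454 db/+ UMIs, Colec11, a secreted lectin, 287 db/db salt and 323 db/+, Pdgfrb 254 db/db salt and 226 db/+, and the proteoglycan gene Cspg4 131 db/db salt and 164 db/+. The log2 ratios of these 5 genes, db/db and 1% salt over db/+, lay between -0.19 and 0.30. Steap4, a metalloreductase gene, differed most. It had 339 UMIs (1748 CPM, 1567 to 1944) in the db/db and 1% salt library and 210 UMIs (986 CPM, 857 to 1129) in the db/+ library, a log2 ratio of 0.82, with medians of 8 db/db salt and 4 db/+ UMIs per purer barcode. In mixed pericytes Steap4 had 543 db/db salt and 700 db/+ UMIs and a log2 ratio of 0.05, so the mixed barcodes did not show it.

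Beyond the rule, the barcodes carried a wider set of pericyte genes. Of 30 further pericyte genes, 21 were higher in purer pericytes than in smooth muscle, endothelial and fibroblast barcodes of both libraries, 15 of them at least 1.5-fold. Next to genes of the rule, the largest such differences were in P2ry14, a receptor for UDP sugars (449 db/db salt and 371 db/+ CPM, and 0.361 db/db salt and 0.0854 db/+ CPM in endothelial barcodes), Art3, an ADP-ribosyltransferase family gene, the carboxypeptidase gene Cpm and the carbonic anhydrase gene Car2. The 15 leading genes also held the ion cotransporter gene Slc12a2, the selectin gene Sele, the interleukin receptor gene Il2ra, the GTPase gene Rab37, 1810011H11Rik and Adap2os, with Kcnj8, Abcc9 and Steap4 of the rule. The 15 were picked by their ratios in these same barcodes, so they describe the purer barcodes and do not test the name pericyte. The count of 21 of 30 does not test it either. The share of all genes that pass the same comparison was not counted. The endothelial and fibroblast classes were also chosen to carry few of the 8 pericyte genes. The smooth muscle gene Acta2 was present in part of the purer barcodes, with 93 db/db salt and 122 db/+ UMIs in 11 of 39 db/db salt and 16 of 47 db/+ purer barcodes. Single barcodes carried much of it. In 4 db/db salt and 4 db/+ barcodes there were 10 or more Acta2 UMIs, with 32 db/db salt and 28 db/+ at the highest. None was seen in 28 db/db salt and 31 db/+ purer barcodes.

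**Figure D2:**
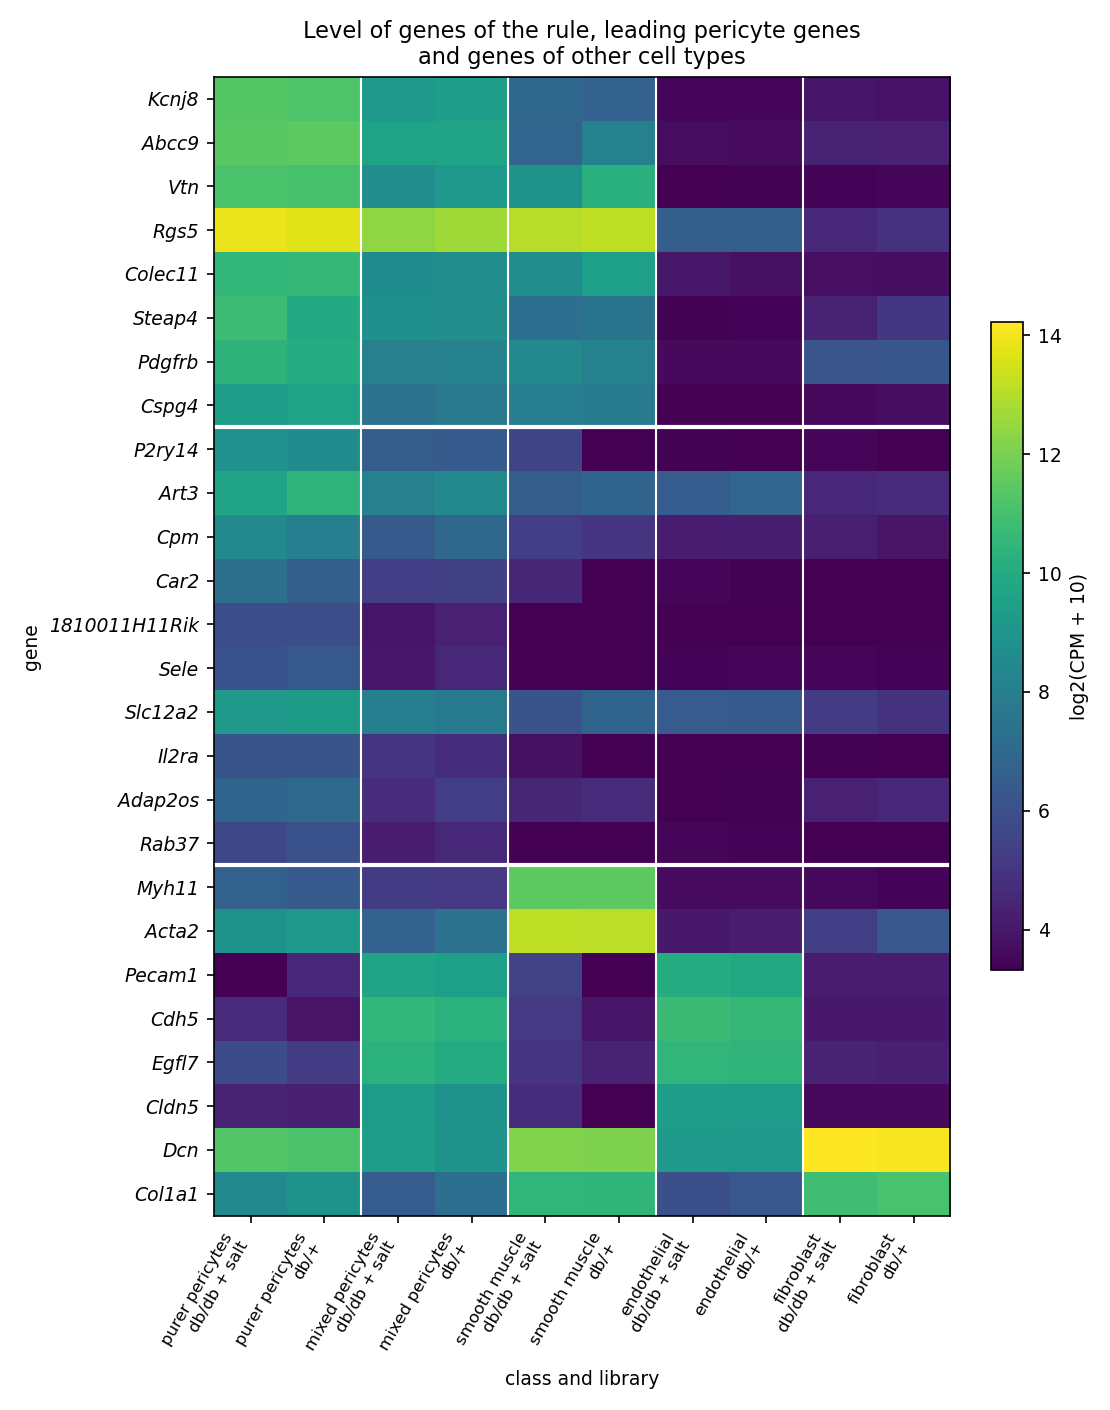
Level of each gene as log2 of CPM plus 10 (colour) in purer and mixed pericytes and in smooth muscle, endothelial and fibroblast barcodes, the db/db and 1% salt library left of the db/+ library in each pair. Rows are the 8 genes of the rule, further leading pericyte genes and genes of other cell types; each row is to be read across classes, and the mixed pericytes carry the endothelial genes, of which the purer ones hold few UMIs.

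Between the libraries, most called genes of the purer pericytes rested on few UMIs. Of 3835 genes with a mean of at least 50 CPM, 440 were called higher in the db/db and 1% salt library (11.5%) and 447 lower (11.7%), together 23.1%, with a median log2 ratio of -0.00 over all of them. Requiring in addition that the counting intervals of both libraries did not overlap, a rule added after the values were seen, left 48 higher (1.25%) and 72 lower genes (1.88%), together 3.13%. In the deeper mixed pericytes 55 of 3711 genes were called higher (1.48%) and 97 lower (2.61%), together 4.10%. Without the barcodes that carried fibroblast transcripts, purer pericytes had 471 higher (12.3%) and 476 lower genes (12.5%) of 3814, together 24.8%, and 2.60% with intervals apart. For the other classes named below, the called share was 2.68% in endothelial barcodes (0.650% higher, 2.03% lower), 1.94% in fibroblast barcodes (0.676% higher, 1.26% lower) and 21.7% in the 25 db/db salt and 25 db/+ smooth muscle barcodes (12.0% higher, 9.73% lower). Every count for a list below is to be read against these shares.

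Among the purer pericytes, the 10 lowest ratios by the rule for named genes were those of Dbp, Hlf, Ptn, Cd9, Nr1d1, Postn, Hist1h2bc, Nrd1, Ndfip2 and Psmb10, and the 10 highest those of Fmo2, Krcc1, Eif4ebp2, Cyr61, Scd2, Hspb1, Hsd11b1, Dmd, Cdk2ap2 and Zfp638. The low end held 3 clock genes, described below, and Postn. Several of the others depended on the barcodes with fibroblast transcripts. Fmo2, a flavin monooxygenase gene, had 35 UMIs in purer pericytes of the db/db and 1% salt library and 0 in those of the db/+ library, at least 12.8-fold higher against a floor of 3 UMIs per library, but 34 of the 35 lay in those barcodes. They also held most UMIs of Hsd11b1, the enzyme that regenerates active glucocorticoid (47 db/db salt and 20 db/+ UMIs with them, 7 db/db salt and 8 db/+ without). The matricellular gene Cyr61 had 35 db/db salt and 14 db/+ UMIs with them and 4 db/db salt and 13 db/+ without, and its log2 ratio was 1.33 with and -1.20 without. For Ptn, which encodes pleiotrophin, the log2 ratio was -2.17 with and -0.66 without them, and for the tetraspanin gene Cd9 it was -2.10 and -1.28, against 0.68 in mixed pericytes.

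The small heat shock protein gene Hspb1 kept its difference without them, with 57 db/db salt and 24 db/+ UMIs in all purer pericytes (log2 ratio 1.31) and 47 db/db salt and 18 db/+ without those barcodes (1.505). In mixed pericytes Hspb1 was at 0.39. Eif4ebp2, a repressor of cap-dependent translation, had 40 db/db salt and 16 db/+ UMIs, with log2 ratios of 1.34 with, 1.33 without and 0.51 in mixed pericytes. The zinc finger gene Zfp638 (33 db/db salt and 15 db/+ UMIs, 1.16) and the dystrophin gene Dmd (30 db/db salt and 13 db/+ UMIs, 1.21) were at -0.04 and -0.16 in mixed pericytes. Krcc1 (34 db/db salt and 12 db/+ UMIs, 1.48) and Cdk2ap2 (42 db/db salt and 19 db/+ UMIs, 1.19) were at 0.19 and 0.21 there. At the low end, the histone gene Hist1h2bc (17 db/db salt and 54 db/+ UMIs, -1.43), the protease gene Nrd1 (10 db/db salt and 33 db/+ UMIs, -1.42) and the ubiquitin ligase adaptor gene Ndfip2 (11 db/db salt and 35 db/+ UMIs, -1.39) were at 0.39, -0.05 and -0.06 in mixed pericytes, so these 3 differences were seen in the purer barcodes and not in the mixed ones. The difference between the strata was not tested.

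**Figure D3:**
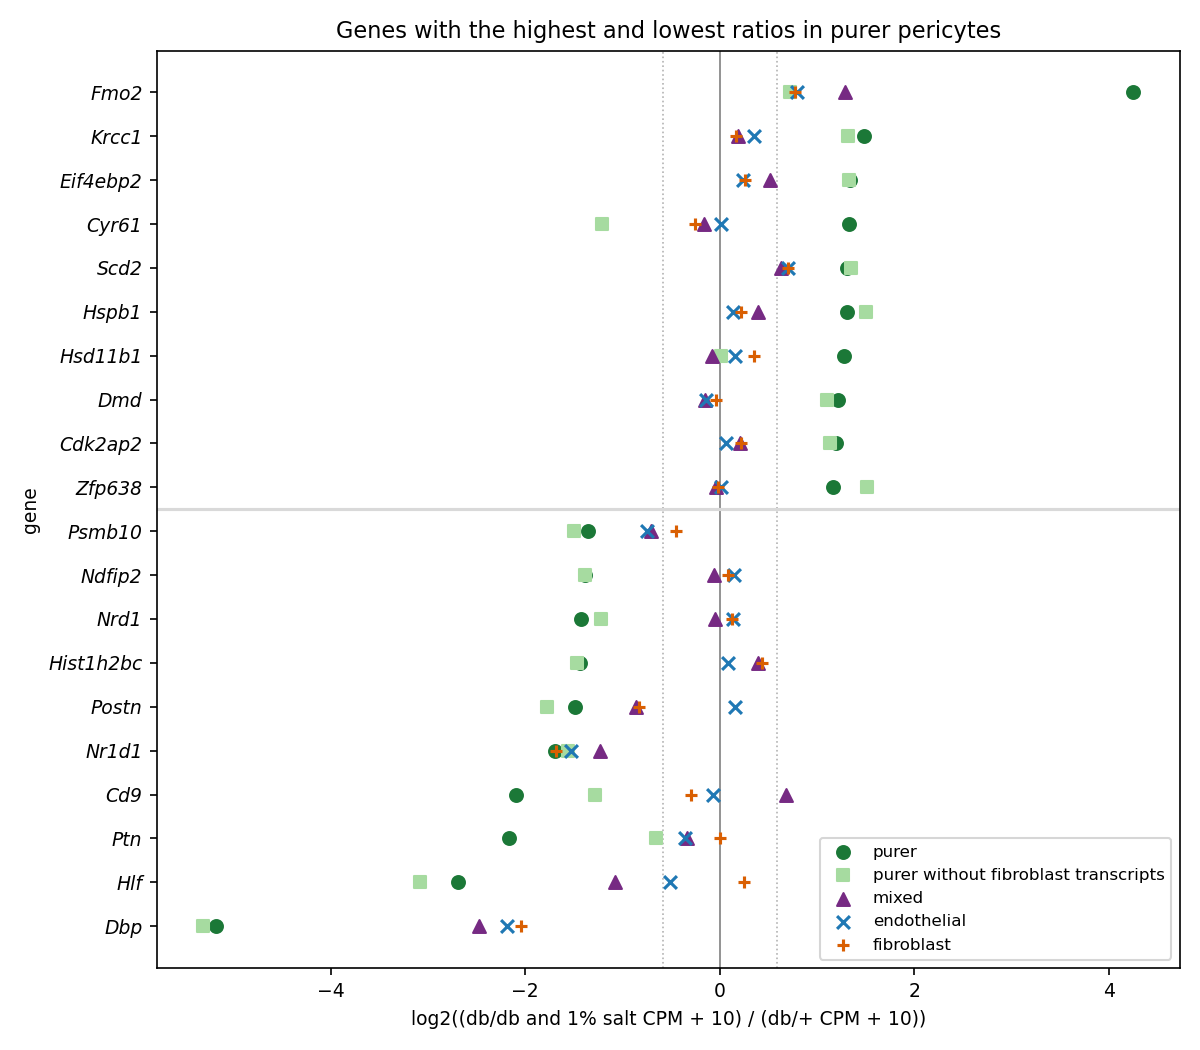
Log2 ratio of db/db and 1% salt CPM plus 10 over db/+ CPM plus 10 for the 10 highest (top) and 10 lowest (bottom) genes of purer pericytes, beside the same genes in purer pericytes without fibroblast transcripts, mixed pericytes, endothelial and fibroblast barcodes. Dotted lines mark 1.5-fold. Dbp, Hlf, Nr1d1, Psmb10 and Postn are below the lower line in purer and mixed pericytes, Hlf with a mean below 50 CPM in the mixed ones. The ratios of Dbp and Fmo2 in purer pericytes depend on the 10 CPM added because 1 library had no UMI.

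Clock output genes were lower in pericytes of the db/db and 1% salt library, and Dbp and Hlf had the lowest ratios of the 10 lowest genes above. The circadian clock is a loop in which Arntl, with Clock or Npas2, drives Per, Cry and Nr1d genes and the PAR bZip factors Dbp, Hlf and Tef, and Per and Cry proteins and the NR1D repressors close the loop. Of 20 clock genes, 6 were measured in purer pericytes, none was higher and 4 were lower, all 4 with intervals apart. The median log2 ratio was -1.46. Setting Dbp at its bound, given below, could not change this median, because Dbp stayed the lowest of the 6. Without the fibroblast-carrying barcodes it was 5 of 7 lower and -1.09, and in mixed pericytes, where Hlf and Nr1d2 had means below 50 CPM, 2 of 5 lower and -0.30. In smooth muscle barcodes 3 of 6 clock genes were lower, with a median of -0.69, and in fibroblast barcodes 3 of 7, with a median of -0.53. In endothelial barcodes 0 of 3 were lower, with a median of 0.26. Dbp, Nr1d1 and Nr1d2 had means below 50 CPM there and were not among the 3. Their log2 ratios in endothelial barcodes were -2.18, -1.53 and -0.75. The labels give no hour at which hearts were taken.

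Dbp (chr7:45705088-45710203, plus strand of GRCm38) had 0 UMIs in purer pericytes of the db/db and 1% salt library and 75 UMIs (352 CPM, 277 to 442) in those of the db/+ library, at least 22.8-fold lower against a floor of 3 UMIs, or 15.5 CPM. No purer barcode of 39 in the db/db and 1% salt library held a Dbp UMI, which allows a share of barcodes with a UMI of up to 7.69% and sets no limit on cells that express the gene, while 33 of 47 in the db/+ library held 1 to 7. After thinning, the shares were 0% in db/db salt and 24.4% (12.9 to 39.5) in db/+ purer pericytes. Mixed pericytes had 20 UMIs (15.8 CPM) in db/db salt and 226 UMIs (133 CPM) in db/+, a log2 ratio of -2.47. The direction was the same in the other classes, with Dbp at -2.22 in smooth muscle, -2.18 in endothelial and -2.05 in fibroblast barcodes. Dbp overlaps Sphk2 on the opposite strand in the GENCODE M21 annotation, and the labels do not say whether counting used strand.

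Hlf had 4 UMIs in purer pericytes of the db/db and 1% salt library and 40 in those of the db/+ library, a log2 ratio of -2.69. It was at -1.08 in mixed pericytes, -1.43 in smooth muscle, -0.52 in endothelial and 0.25 in fibroblast barcodes. Nr1d1 (chr11:98767932-98775333, minus strand), the gene of the repressor REV-ERB alpha, had 13 UMIs (67.0 CPM, 35.7 to 115) in db/db salt and 51 UMIs (240 CPM, 178 to 315) in db/+, a log2 ratio of -1.70, and -1.23 in mixed pericytes. In smooth muscle, endothelial and fibroblast barcodes Nr1d1 was at -1.13, -1.53 and -1.69 in turn. Nr1d1 overlaps Thra on the opposite strand, and Thra was at 0.49 in purer pericytes (0.61 without fibroblast-carrying barcodes). Nr1d2, the paralogue of Nr1d1, had 14 db/db salt and 39 db/+ UMIs (-1.23), and in mixed pericytes 23 db/db salt and 115 db/+ (-1.47). Its log2 ratio was -1.64 in smooth muscle, -0.75 in endothelial and -1.19 in fibroblast barcodes. Tef had 2 db/db salt and 14 db/+ UMIs, Per3 2 db/db salt and 13 db/+ and Bhlhe40 0 db/db salt and 18 db/+, all with means below 50 CPM, and mixed pericytes had 12 db/db salt and 82 db/+ UMIs for Tef, 16 db/db salt and 41 db/+ for Per3, and 79 db/db salt and 110 db/+ for Bhlhe40. The activators and Cry1 ran the other way on few UMIs, with 9 db/db salt and 4 db/+ UMIs for Arntl, 9 db/db salt and 2 db/+ for Npas2, 24 db/db salt and 18 db/+ for Clock and 8 db/db salt and 2 db/+ for Cry1. In mixed pericytes Arntl had 38 UMIs (30.0 CPM, 21.3 to 41.2) in db/db salt and 20 UMIs (11.8 CPM, 7.21 to 18.2) in db/+, with intervals apart, while Cry1 had 29 db/db salt and 51 db/+ UMIs, or 22.9 db/db salt and 30.1 db/+ CPM.

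**Figure D4:**
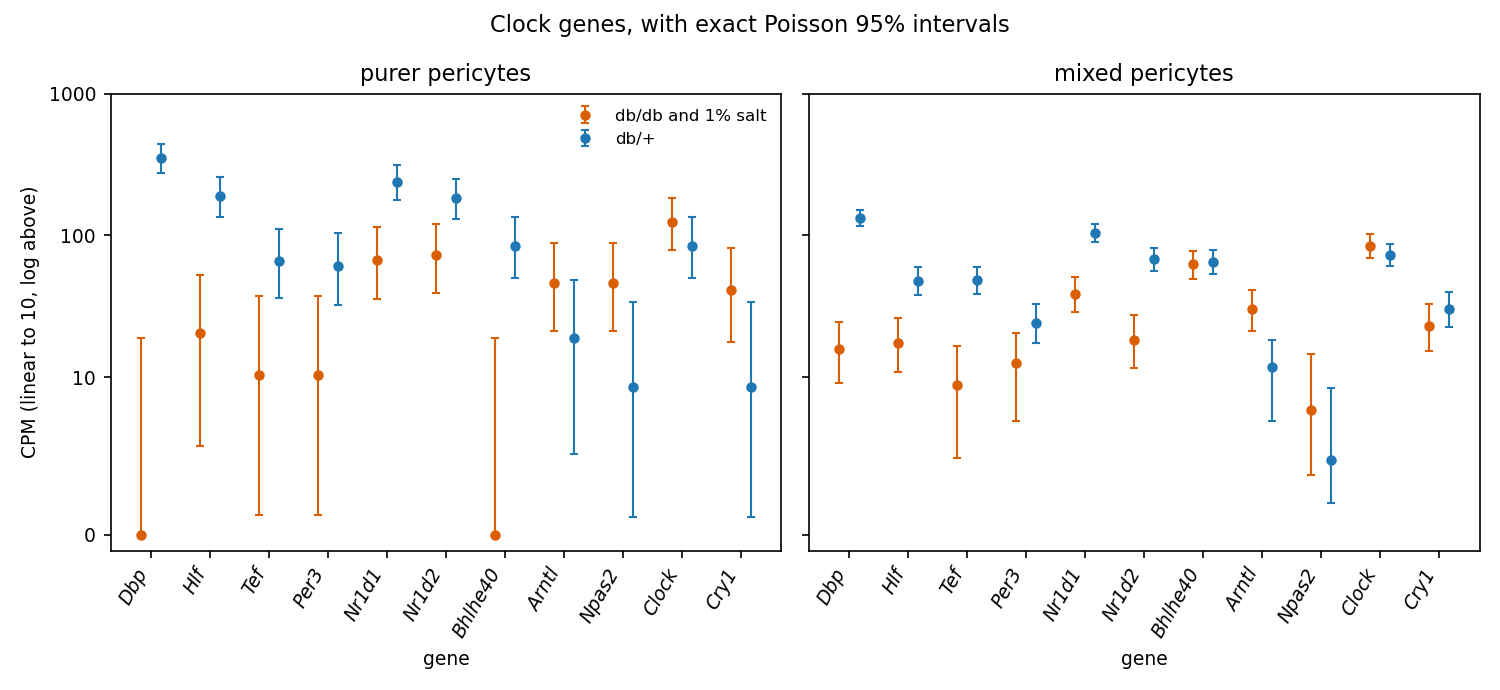
CPM of clock genes with exact Poisson 95% intervals (vertical axis, linear to 10 and logarithmic above) in purer pericytes (left panel) and mixed pericytes (right panel), with the db/db and 1% salt library left of the db/+ library for each gene. Dbp, Hlf, Nr1d1 and Nr1d2 are lower in the db/db and 1% salt library in both panels, and Arntl is higher.

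Promoters of 3 of these genes are shown because they hold letters through which clock factors are known to bind: the E-box CACGTG and its variant CACGTT, read by Arntl with Clock or Npas2, and the D-box TTATGNAA, read by the PAR bZip factors. Each is the 250 bases before the RefSeq start site on GRCm38.p6, written in the direction of the gene, with matches on either strand in capitals. They are Nr1d1 (chr11:98775378-98775627, minus strand, E-box variant 28 bases before the start), Per3 (chr4:151044666-151044915, minus strand, D-boxes 205 and 158 bases before it) and Cry1 (chr10:85185055-85185304, minus strand, E-box variant 79 and E-box 60 bases before it).
Nr1d1: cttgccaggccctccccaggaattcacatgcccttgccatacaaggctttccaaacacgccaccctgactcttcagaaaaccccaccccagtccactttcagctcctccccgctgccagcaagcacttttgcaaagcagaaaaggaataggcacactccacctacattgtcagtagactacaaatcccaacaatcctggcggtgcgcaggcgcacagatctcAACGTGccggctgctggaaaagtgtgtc
Per3: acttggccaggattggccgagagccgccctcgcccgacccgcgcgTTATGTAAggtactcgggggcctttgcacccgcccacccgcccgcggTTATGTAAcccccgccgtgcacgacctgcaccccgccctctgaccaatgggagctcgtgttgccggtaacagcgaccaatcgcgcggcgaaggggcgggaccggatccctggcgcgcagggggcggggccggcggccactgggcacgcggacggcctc
Cry1: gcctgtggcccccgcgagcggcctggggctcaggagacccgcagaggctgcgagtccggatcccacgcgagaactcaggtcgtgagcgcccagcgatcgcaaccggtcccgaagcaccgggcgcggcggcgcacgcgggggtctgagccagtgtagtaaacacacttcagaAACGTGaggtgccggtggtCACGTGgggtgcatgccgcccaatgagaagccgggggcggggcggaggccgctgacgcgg
Of 32851 such windows in the table, 6.02% held CACGTG, 3.85% CACGTT and 3.07% TTATGNAA on either strand. Tef held an E-box in both of its windows. The windows of Dbp, Hlf, Nr1d2, Arntl and Npas2 held none of these letters. Windows were found for 19 of 21 genes looked up. A match describes the letters only.

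The second group that was lower in pericytes of the db/db and 1% salt library was that of antigen presentation and interferon-stimulated genes. MHC class I molecules show peptides, cut by the immunoproteasome and carried by the Tap transporter, at the cell surface together with B2m, and interferons raise the genes of this route. Of 28 antigen presentation genes, 13 were measured in purer pericytes, 0 were higher and 8 lower, 3 of them with intervals apart, and the median log2 ratio was -0.67. Without fibroblast-carrying barcodes 1 of 13 was higher and 7 were lower, with a median of -0.60. Mixed pericytes had 13 of 19 lower and a median of -0.81. Of 54 interferon response genes, 11 were measured in purer pericytes, with 0 higher, 5 lower (2 with intervals apart) and a median of -0.42, and 39 in mixed pericytes, with 0 higher, 23 lower and a median of -0.76. In endothelial barcodes 17 of 21 antigen presentation and 25 of 42 interferon response genes were lower and 0 higher, and in fibroblast barcodes 2 of 12 and 4 of 11 were lower. In smooth muscle barcodes 0 of 9 antigen presentation genes were called, with a median of -0.05, and of 7 interferon response genes 1 was higher and 1 lower, with a median of -0.27. Without fibroblast-carrying barcodes, 13 interferon response genes were measured in purer pericytes, with 0 higher, 5 lower and a median of -0.44. Mixed barcodes hold endothelial RNA, so their values are not those of pericytes alone.

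B2m, the light chain of MHC class I (chr2:122147686-122153083, plus strand), had 78 UMIs (402 CPM, 318 to 502) in purer pericytes of the db/db and 1% salt library and 207 UMIs (972 CPM, 844 to 1114) in those of the db/+ library, a log2 ratio of -1.25. It was seen in 26 of 39 db/db salt and 42 of 47 db/+ purer barcodes, with 8 db/db salt and 30 db/+ UMIs at the highest. The log2 ratio of B2m was -1.20 without fibroblast-carrying barcodes, -1.12 in mixed pericytes, -1.33 in endothelial, -0.56 in smooth muscle and -0.55 in fibroblast barcodes. The heavy chain genes H2-D1 (110 db/db salt and 198 db/+ UMIs, -0.70) and H2-K1 (44 db/db salt and 78 db/+ UMIs, -0.67) are close in sequence to each other and to further H2 genes, so reads may be split between them. Psmb10 (12 db/db salt and 37 db/+ UMIs, -1.35) and Psmb8 (6 db/db salt and 19 db/+ UMIs, -1.28), subunits of the immunoproteasome, and Tap2 (9 db/db salt and 22 db/+ UMIs, -1.01) were lower as well. In mixed pericytes these 3 genes had 183 db/db salt and 412 db/+ UMIs, 240 db/db salt and 777 db/+ UMIs, and 117 db/db salt and 287 db/+ UMIs in turn, with log2 ratios of -0.71, -1.23 and -0.81.

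Bst2, which encodes tetherin, a protein that holds budding virus at the membrane, had 9 UMIs (46.4 CPM, 21.2 to 88.1) in db/db salt and 40 UMIs (188 CPM, 134 to 256) in db/+ purer pericytes, a log2 ratio of -1.81, and -1.55 in mixed pericytes. Ly6e had 10 db/db salt and 39 db/+ UMIs (-1.65; -0.35 in mixed), Sp100 7 db/db salt and 19 db/+ (-1.11; -0.32 in mixed) and Lgals3bp 8 db/db salt and 21 db/+ (-1.08; -0.53 in mixed). Many interferon genes could be read only in mixed pericytes. Isg15 had 3 db/db salt and 12 db/+ UMIs in purer and 99 db/db salt and 330 db/+ in mixed pericytes (-1.21), and Ifit1 0 db/db salt and 0 db/+ in purer and 42 db/db salt and 150 db/+ in mixed (-1.19). Fabp4, a gene of endothelial cells, was at 1356 db/db salt and 1122 db/+ CPM in purer pericytes, against 22128 db/db salt and 21372 db/+ CPM in endothelial barcodes and 96.8 db/db salt and 98.9 db/+ CPM in fibroblast barcodes, and the part of endothelial RNA in these values was not tested.

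Promoters of 3 of these genes are shown because they hold the core of the interferon-stimulated response element, GAAA repeated after any 2 bases, bound by interferon regulatory factors and the STAT complex ISGF3. The windows are as above, with matches in capitals: B2m (chr2:122147437-122147686, plus strand, 139 bases before the start), Bst2 (chr8:71537473-71537722, minus strand, overlapping matches 130 and 124 bases before it) and Isg15 (chr4:156200819-156201068, minus strand, overlapping matches 78, 72 and 66 bases before it).
B2m: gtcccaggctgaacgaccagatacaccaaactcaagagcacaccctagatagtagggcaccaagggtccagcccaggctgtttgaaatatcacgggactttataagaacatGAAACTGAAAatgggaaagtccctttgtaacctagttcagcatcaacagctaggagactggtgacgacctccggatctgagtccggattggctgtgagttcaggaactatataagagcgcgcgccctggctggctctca
Bst2: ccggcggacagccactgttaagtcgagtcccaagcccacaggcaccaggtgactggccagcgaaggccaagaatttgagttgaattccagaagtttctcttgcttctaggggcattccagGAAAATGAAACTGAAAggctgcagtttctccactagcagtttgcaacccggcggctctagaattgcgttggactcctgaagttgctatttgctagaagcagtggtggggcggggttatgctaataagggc
Isg15: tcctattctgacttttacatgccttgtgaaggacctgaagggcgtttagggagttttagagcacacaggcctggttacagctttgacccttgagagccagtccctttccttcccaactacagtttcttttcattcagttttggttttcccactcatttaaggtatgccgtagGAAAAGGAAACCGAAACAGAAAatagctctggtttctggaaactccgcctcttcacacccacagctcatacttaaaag
The core was in 2.98% of the 32851 windows on either strand. Gbp7 also held it, 53 bases before the start, and Gbp7 had 12 db/db salt and 26 db/+ UMIs in purer pericytes (-0.88) and 270 db/db salt and 794 db/+ in mixed pericytes (-1.10). The windows of H2-K1, H2-D1, Psmb8 and Psmb10 did not hold it. That of Psmb10 held an E-box, CACGTG, 116 bases before the start.

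Among 30 pericyte genes outside the rule, 27 were measured in purer pericytes. Of these, 4 were higher, among them Ifitm1, Agtr1a and Itga7, with intervals apart for Ifitm1 only, and Higd1b and Art3 were lower, both with intervals apart. The median log2 ratio was 0.09, and in mixed pericytes -0.26 with 1 of 23 lower. Higd1b (chr11:102835849-102838040, plus strand), a hypoxia-inducible domain family gene of pericytes, had 154 UMIs (794 CPM, 673 to 930) in the db/db and 1% salt library and 291 UMIs (1367 CPM, 1214 to 1533) in the db/+ library, a log2 ratio of -0.78. Single purer barcodes held medians of 3 db/db salt and 5 db/+ Higd1b UMIs. The log2 ratio of Higd1b was -0.63 in mixed pericytes and -1.15 in smooth muscle barcodes, and it was near 0 CPM in endothelial barcodes (0.670 db/db salt and 0.811 db/+ CPM). Art3 had 159 db/db salt and 291 db/+ UMIs (820 db/db salt and 1367 db/+ CPM), a log2 ratio of -0.73, and -0.48 in mixed pericytes.

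Ifitm1, an interferon-induced transmembrane family gene that is not on the interferon list used here, had 121 UMIs (624 CPM, 518 to 745) in db/db salt and 65 UMIs (305 CPM, 236 to 389) in db/+, a log2 ratio of 1.01. It was higher in the purer pericytes, at 0.89 without fibroblast-carrying barcodes, and at 0.11 in mixed ones. The angiotensin II receptor gene Agtr1a had 19 db/db salt and 12 db/+ UMIs (0.70; -0.11 in mixed) and the laminin receptor gene Itga7 56 db/db salt and 40 db/+ (0.59; -0.57 in mixed).

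Genes of the contractile apparatus had a median log2 ratio of -0.28 in purer and in mixed pericytes. In purer pericytes 2 of 24 were higher (1 with intervals apart) and 4 lower (3 with intervals apart), in mixed pericytes 1 of 23 higher and 4 lower, and in purer pericytes without fibroblast-carrying barcodes 1 of 24 higher and 5 lower. Sncg had 35 UMIs (180 CPM, 126 to 251) in purer pericytes of the db/db and 1% salt library and 89 UMIs (418 CPM, 336 to 514) in those of the db/+ library, a log2 ratio of -1.17, with -1.499 in mixed pericytes. It was counted in this list but encodes gamma-synuclein, which is not a contractile protein. The tropomyosin genes Tpm2 (129 db/db salt and 217 db/+ UMIs, -0.61; -0.82 in mixed) and Tpm4 (47 db/db salt and 116 db/+ UMIs, -1.14; -0.31 in mixed) were lower too, and Actn1, for alpha-actinin, had 16 db/db salt and 32 db/+ UMIs (-0.79; 0.21 in mixed). Tagln, for transgelin, had opposite signs in the strata. It had 84 db/db salt and 35 db/+ UMIs in purer pericytes, a log2 ratio of 1.35, and 65 db/db salt and 250 db/+ in mixed ones, -1.36. Single barcodes carried much of it, since 8 of 39 db/db salt and 11 of 47 db/+ purer barcodes held any Tagln, and the highest held 38 db/db salt and 15 db/+ UMIs. The smooth muscle markers together, 9 genes, summed to 304 db/db salt and 325 db/+ UMIs in purer pericytes (1567 db/db salt and 1526 db/+ CPM) and to 567 db/db salt and 1103 db/+ UMIs in mixed ones (448 db/db salt and 651 db/+ CPM).

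Of 54 receptors of vasoactive ligands and enzymes of cyclic nucleotides, 20 were measured in purer pericytes, with 2 higher, among them Agtr1a, 5 lower and a median of -0.04. The endothelin B receptor gene Ednrb had 25 UMIs (129 CPM, 83.4 to 190) in db/db salt and 58 UMIs (272 CPM, 207 to 352) in db/+, a log2 ratio of -1.02 and the only member with intervals apart, seen in 10 of 39 db/db salt and 24 of 47 db/+ purer barcodes. Ednrb was at -0.10 in mixed pericytes and 0.53 in endothelial barcodes, which carry the gene as well. The phosphodiesterase genes Pde4b (4 db/db salt and 17 db/+ UMIs, -1.55) and Pde1a (13 db/db salt and 28 db/+ UMIs, -0.88) were at -0.44 and 0.10 in mixed pericytes. Of 23 ion channels and calcium handling genes measured, 2 were higher, 2 lower and none had intervals apart, with a median of -0.04. Those called included the calcium sensor gene Stim1 (27 db/db salt and 13 db/+ UMIs, 1.07; -0.15 in mixed), the sodium pump subunit gene Atp1b3 (24 db/db salt and 13 db/+ UMIs, 0.91; 0.15 in mixed) and the channel gene Trpc1 (9 db/db salt and 17 db/+ UMIs, -0.67; -0.47 in mixed).

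In the signals that hold mural cells to endothelium (PDGF, angiopoietin and Notch genes), 1 of 11 was higher, 0 were lower and none had intervals apart, with a median of 0.13. Pdgfra (23 db/db salt and 12 db/+ UMIs, 0.95) had no UMI in either library without the fibroblast-carrying barcodes, while Jag1 (22 db/db salt and 36 db/+ UMIs) was at -0.54, Nrp1 (133 db/db salt and 100 db/+ UMIs) at 0.54 and Hes1 (63 db/db salt and 51 db/+ UMIs) at 0.42. Of 17 TGF-beta and BMP genes, 1 was higher, 2 lower and none had intervals apart, with a median of -0.07. Smad7 (12 db/db salt and 21 db/+ UMIs, -0.60) and Skil (8 db/db salt and 16 db/+ UMIs, -0.73), both negative regulators, the receptor gene Bmpr1a (25 db/db salt and 16 db/+ UMIs, 0.71) and the ligand gene Tgfb2 (16 db/db salt and 25 db/+ UMIs, -0.46) were at -0.29, -0.23, 0.32 and -0.33 in mixed pericytes. Without fibroblast-carrying barcodes 0 of 12 were higher and 2 lower, with a median of -0.15. Bmpr1a was then at 0.36, within 1.5-fold, and Tgfb2, with 8 db/db salt and 7 db/+ UMIs, at 0.33.

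Matrix genes were led by Postn (chr3:54361109-54391037, plus strand), which encodes periostin, a matricellular protein of fibrotic and healing tissue. It had 82 UMIs (423 CPM, 336 to 525) in purer pericytes of the db/db and 1% salt library and 256 UMIs (1202 CPM, 1060 to 1359) in those of the db/+ library, a log2 ratio of -1.49. Single barcodes held medians of 1 db/db salt and 5 db/+ Postn UMIs, and after thinning 33.3% (19.1 to 50.2) of db/db salt and 80.0% (65.4 to 90.4) of db/+ purer barcodes carried one. The log2 ratio of Postn was -1.77 without fibroblast-carrying barcodes, -0.86 in mixed pericytes, -0.84 in smooth muscle, -0.83 in fibroblast and 0.15 in endothelial barcodes, which should lack it and where 0.959% of db/db salt and 0.715% of db/+ barcodes carried a UMI after thinning. Of 26 fibrillar collagen and matrix activation genes, 4 were higher and 5 lower, with a median of -0.22. Without fibroblast-carrying barcodes 0 of 21 were higher and 8 lower, with a median of -0.32, and 0 of 17 were higher and 3 lower in mixed pericytes.

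The collagen gene Col5a2 had 33 db/db salt and 67 db/+ UMIs in purer pericytes, with log2 ratios of -0.85 with and -1.33 without fibroblast-carrying barcodes and -0.24 in mixed pericytes. Eln, for elastin, had 30 db/db salt and 17 db/+ UMIs (0.87, and 0.88 in mixed). It was not called higher without fibroblast-carrying barcodes. Cilp had 4 db/db salt and 18 db/+ UMIs (-1.63), all of them in fibroblast-carrying barcodes. Of 24 basement membrane genes, 2 were higher, 3 lower and 1 had intervals apart, with a median of -0.12, and without fibroblast-carrying barcodes 1 of 22 was higher and 5 lower. The member with intervals apart, Fn1 for fibronectin, had 76 UMIs (392 CPM, 309 to 490) in db/db salt and 137 UMIs (643 CPM, 540 to 761) in db/+, a log2 ratio of -0.70, with -0.32 in mixed pericytes. Lamb1, a laminin chain gene, had 37 db/db salt and 66 db/+ UMIs (-0.67; 0.32 in mixed), Agrn 8 db/db salt and 16 db/+ (-0.73) and Col4a3 14 db/db salt and 8 db/+ (0.79).

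Of 32 genes of cholesterol synthesis and lipogenesis, 6 were measured in purer pericytes, 4 were higher and 0 lower, 2 of them with intervals apart, with a median of 0.80. Without fibroblast-carrying barcodes 3 of 8 were higher and the median was 0.25, and in mixed pericytes 0 of 4 were called. The desaturase gene Scd2 had 30 db/db salt and 12 db/+ UMIs (1.31; 0.63 in mixed), and the cholesterol synthesis genes Msmo1 18 db/db salt and 9 db/+ (0.98; 0.55 in mixed) and Hmgcs1 15 db/db salt and 10 db/+ (0.62; 0.32 without those barcodes; 0.47 in mixed). Each of these 3 genes was on the same side in both strata, and all 3 rested on 30 or fewer UMIs per library in purer pericytes.

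Of 15 measured genes of fatty acid uptake and use, 4 were higher and 1 lower, with a median of 0.07 (6 of 17 higher and 1 lower without fibroblast-carrying barcodes), and 3 of the higher ones had intervals apart. These were the binding protein gene Fabp5 (288 db/db salt and 205 db/+ UMIs, 0.62), the fatty acid translocase gene Cd36 (51 db/db salt and 28 db/+ UMIs, 0.95) and the acyl-CoA ligase gene Acsl4 (20 db/db salt and 6 db/+ UMIs, 1.57). Cd36 was seen in 14 of 39 db/db salt and 18 of 47 db/+ purer barcodes. In mixed pericytes Fabp5 was at -0.24, Cd36 at 0.17 and Acsl4 at 0.28. Cd36 and Fabp4 are endothelial genes in heart, and 12 endothelial markers outside the rule summed to 2315 db/db salt and 1897 db/+ CPM in purer pericytes, a difference in the direction of Cd36 whose part was not tested. Lpl had 90 db/db salt and 63 db/+ UMIs (0.63; 0.40 in mixed) and the lipid droplet gene Plin2 17 db/db salt and 33 db/+ (-0.76; -0.61 in mixed).

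Energy metabolism genes were mostly within 1.5-fold. Of 68 respiratory chain and ATP synthase genes, 1 was higher, 5 lower and 1, Ndufs5, had intervals apart (60 db/db salt and 105 db/+ UMIs, -0.66), with a median of 0.04, and none of 69 was called in mixed pericytes. Ndufb8 (33 db/db salt and 65 db/+ UMIs, -0.81), Ndufv1 (12 db/db salt and 24 db/+ UMIs, -0.77) and Atp5c1 (52 db/db salt and 92 db/+ UMIs, -0.67) were at -0.13, 0.09 and -0.01 in mixed pericytes, and Atp5c1 was at -0.51 without fibroblast-carrying barcodes. Of 17 glycolysis and hypoxia genes, 1 was higher, the prolyl hydroxylase gene P4ha1 (54 db/db salt and 33 db/+ UMIs, 0.81; -0.31 in mixed), and none had intervals apart, with a median of -0.02. Hif1a (14 db/db salt and 10 db/+ UMIs) was at 0.53 (0.60 without fibroblast-carrying barcodes), Pgam1 (34 db/db salt and 49 db/+ UMIs) at -0.37 and Pfkp (16 db/db salt and 21 db/+ UMIs) at -0.23. Of 12 insulin, IGF and leptin signalling genes, 2 were higher, 3 lower and none had intervals apart, with a median of 0.09. Igfbp6 (5 db/db salt and 19 db/+ UMIs, -1.47) had no UMI outside the fibroblast-carrying barcodes, and Igfbp4 (21 db/db salt and 39 db/+ UMIs) was at -0.71 with and 0.74 without them, while Igf1 (25 db/db salt and 15 db/+ UMIs) was at 0.79 with and 0.33 without them and the adiponectin receptor gene Adipor1 (19 db/db salt and 12 db/+ UMIs) at 0.70. Without them 2 of 10 genes of this list were higher and 0 lower.

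Immediate early and heat shock genes depended on the same barcodes. Of 22 measured, 7 were higher and 2 lower, with a median of 0.35, while without fibroblast-carrying barcodes 4 of 20 were higher and 4 lower, with a median of 0.12. Fosb had 28 db/db salt and 8 db/+ UMIs (1.70) with and 4 db/db salt and 5 db/+ (-0.08) without them, and the HSP70 gene Hspa1a 59 db/db salt and 28 db/+ (1.15) with and 18 db/db salt and 24 db/+ (-0.19) without. The constitutive family member Hspa8 (117 db/db salt and 202 db/+ UMIs, -0.64) and its cochaperone gene Dnaja1 (53 db/db salt and 124 db/+ UMIs, -1.06) were lower with intervals apart, at -0.30 and -0.34 in mixed pericytes. Egr1, among the highest without those barcodes, had 87 db/db salt and 78 db/+ UMIs (0.28), 62 db/db salt and 24 db/+ (1.51) without them, and 445 db/db salt and 369 db/+ in mixed pericytes (0.67). Of 11 chemokine, adhesion and inflammation genes, 3 were higher and 1 lower, with a median of 0.31, and of 10 without fibroblast-carrying barcodes 0 were higher and 1 lower, with a median of -0.08. Ccl11 (17 db/db salt and 4 db/+ UMIs, 1.76) had 3 db/db salt and 3 db/+ UMIs without them, and the cytokine receptor gene Il6st (10 db/db salt and 30 db/+ UMIs, -1.29) was at -1.38. Cebpb (19 db/db salt and 12 db/+ UMIs, 0.70) and Cebpd (73 db/db salt and 52 db/+ UMIs, 0.60) were at 0.43 and -0.36 without them.

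Of 8 glucocorticoid response genes and metallothioneins, 1 was higher, 1 lower and none had intervals apart, with a median of -0.14. The lower one was Mt1 (30 db/db salt and 59 db/+ UMIs, -0.80; -1.02 without fibroblast-carrying barcodes; -1.15 in mixed), and Errfi1 (121 db/db salt and 184 db/+ UMIs, -0.46) and Nr3c1 (70 db/db salt and 57 db/+ UMIs, 0.42) were within 1.5-fold. Of 24 oxidative stress and detoxification genes, 2 were higher and 2 lower, with a median of 0.12, and without fibroblast-carrying barcodes 0 of 21 were higher and 2 lower. The NADPH oxidase subunit gene Cyba had 21 UMIs (108 CPM, 67.0 to 165) in db/db salt and 59 UMIs (277 CPM, 211 to 357) in db/+, a log2 ratio of -1.28, with -0.13 in mixed pericytes. Gstt1 (7 db/db salt and 16 db/+ UMIs) was at -0.89, Gstm2 (21 db/db salt and 13 db/+ UMIs) at 0.73 (0.51 without fibroblast-carrying barcodes) and Gpx3 (34 db/db salt and 24 db/+ UMIs) at 0.59. Neither Gstm2 nor Gpx3 was called higher without those barcodes. Only 2 of 20 proliferation genes were measured, Hmgb2 (24 db/db salt and 13 db/+ UMIs, 0.91) and H2afz (85 db/db salt and 66 db/+ UMIs, 0.49).

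**Figure D5:**
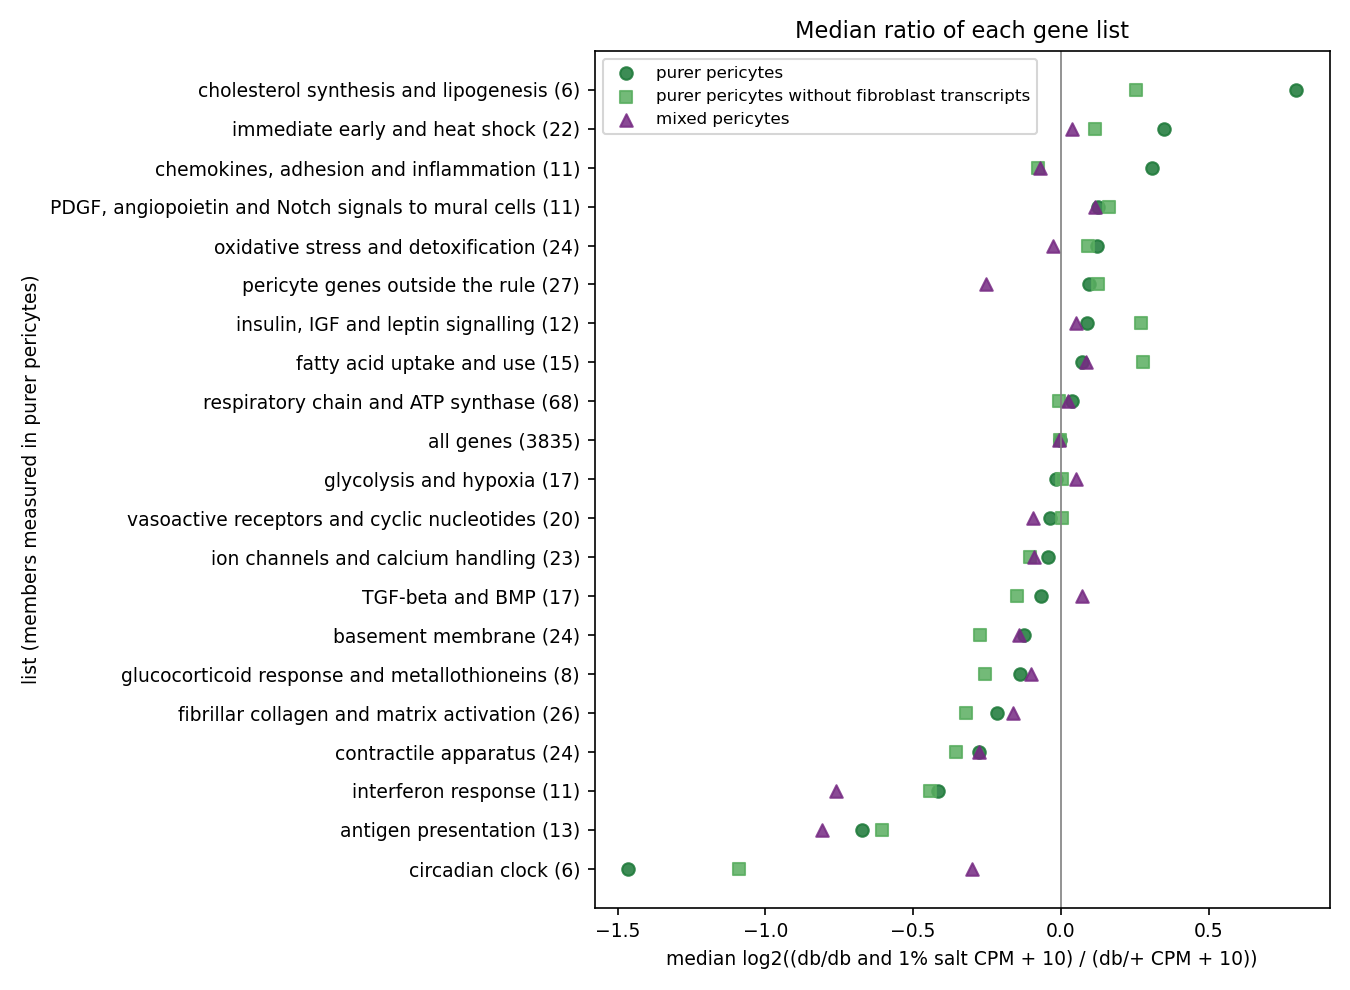
Median log2 ratio of db/db and 1% salt over db/+ for each gene list with at least 5 measured members, in purer pericytes, purer pericytes without fibroblast transcripts and mixed pericytes, with the number of members measured in purer pericytes in brackets. The clock, antigen presentation and interferon lists have the lowest medians in purer pericytes; the median over all measured genes was -0.00.

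Purer and mixed pericytes called few genes in common. Of 324 genes lower in purer pericytes and measured in mixed ones, 25 (7.72%) were also lower there, and of 283 higher genes 8 (2.83%) were also higher, against 2.61% lower and 1.48% higher among all genes of the mixed pericytes. In the opposite direction, 7 of the 324 and 2 of the 283 were called in mixed pericytes. The 8 were Rps28, Rpl35, mt-Atp8, Gm10076, Gm10260, Hspa1b, Fmo2 and Tppp3. Without fibroblast-carrying barcodes Hspa1b was at -0.32 in purer pericytes, and 34 of the 35 Fmo2 UMIs lay in those barcodes. Both strata came from the same libraries. Of the 25, 15 were also lower in endothelial and 9 in fibroblast barcodes, and 7 in neither. These 7, looked up after the values were seen, were Sncg, Tpm2, Higd1b, Angptl2, Hopx, Cog7 and Tspan4. No least level in endothelial or fibroblast barcodes was required for this count. A gene barely counted in such a class, as Higd1b was in endothelial barcodes, could not be called lower there. In smooth muscle barcodes Higd1b (-1.15), Cog7 (-1.14), Tspan4 (-0.99) and Hopx (-0.66) were lower as well. Without fibroblast-carrying barcodes Hopx and Tspan4 were at -0.58 and -0.52 in purer pericytes, within 1.5-fold. Angptl2, a secreted angiopoietin-like gene, had 74 db/db salt and 161 db/+ UMIs in purer pericytes (-0.97), -1.30 without fibroblast-carrying barcodes and -0.65 in mixed pericytes, against -0.10 in both endothelial and fibroblast barcodes. Hopx had 23 db/db salt and 41 db/+ UMIs (-0.66; -1.21 in mixed) and Cog7 50 db/db salt and 94 db/+ (-0.75; -0.87 in mixed). The mixed pericytes carried a larger part of endothelial markers in the db/db and 1% salt library (12 markers outside the rule at 31722 db/db salt and 28502 db/+ CPM) and a smaller part of the 6 pericyte markers (8059 db/db salt and 9347 db/+ CPM), and the part of this shift in the mixed values was not tested.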

How the data were processed

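Single cells of hearts, depleted of cardiomyocytes and CD45+ cells, were sequenced with 10x 3' v3.1 chemistry, per the labels' protocols. The authors deposited filtered matrices of UMI counts per gene and barcode, made with Cell Ranger 6.0.2 per the file headers; the submitters' processing notes also name Seurat and the builds GRCm38 and mm10. No normalization had been applied to the deposited counts. Here barcodes were selected and divided as described above, and 10427 deposited barcodes gave 9092 with at least 500 genes and at most 10% mitochondrial UMIs. Raw counts were summed per library and class, scaled to CPM and compared as the log2 ratio of db/db and 1% salt over db/+ after adding 10 CPM, among genes with a mean of at least 50 CPM. With 1 library per group no test or p-value was computed, and Poisson and Clopper-Pearson intervals cover counting error only. Shares of barcodes with a UMI were taken after thinning each barcode to 1500 UMIs, leaving out shallower ones.

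Smooth muscle barcodes had 3 or more Myh11 UMIs, endothelial barcodes UMIs of at least 3 of the 4 endothelial genes, and fibroblast barcodes UMIs of at least 3 of Pdgfra, Dcn, Lum, Col1a1 and Dpt, each with few genes of the other classes. The genes named are the genes of the rule, the 10 highest and 10 lowest ratios in purer pericytes among genes with at least 100 CPM, 30 UMIs and a UMI in at least 10% of barcodes of the higher library and at least 25% of the highest CPM in any other class, up to 4 members of each list with the largest ratios, and the 15 genes that most set the purer barcodes apart; mitochondrial, ribosomal, haemoglobin, Gm and Rik genes were left out of the 10 and 10. A few genes that the rule picks are not reported here. Other genes are named as members of a list, as leading genes without fibroblast-carrying barcodes, or after their values were seen. Members and lists were chosen with earlier results of these data known. The alternatives changed the marker, endothelial, Myh11 and mitochondrial limits, depth, doublets (Scrublet), added CPM, filter, scaling (TMM of edgeR 4.0.16) and strata. Alternatives added after seeing the data left out purer barcodes with fibroblast transcripts or with 10 or more Acta2 UMIs, used a mean of 200 CPM, averaged CPM over barcodes, and required intervals apart. The calculation was tested on simulated data. Python 3.11.15, numpy 2.4.6, pandas 2.3.3, scanpy 1.11.5 and R 4.3.3 were used. Of 31053 genes, 31011 had an entry in GENCODE M21, from which positions were taken.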

Additional observations from a re-analysis of the deposited data

Results flagged for a closer look

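Tagln, which encodes the actin-binding protein transgelin of contractile cells, had opposite directions in purer pericytes and fibroblast barcodes. Its log2 ratio of db/db and 1% salt over db/+ was 1.35 in purer pericytes, with 84 UMIs in the db/db and 1% salt library and 35 in the db/+ library, and -0.67 in fibroblast barcodes. The difference between the classes was not tested. The highest single barcode held 45.2% of the Tagln UMIs of purer pericytes in the db/db and 1% salt library and 42.9% in the db/+ library. In mixed pericytes the log2 ratio of Tagln was -1.36.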

How the results depend on the processing

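Each count rests on 1 library per group, so no setting measures the spread between animals. No paired analysis was possible because each group has 1 library and no comparison comes from a test. Under TMM scaling, with endothelial limits of 2 or 8, with a mitochondrial limit of 20% and with 1 CPM added, none of the 114 named genes moved beyond its counting interval, and none of those at least 1.5-fold apart changed sign. An endothelial limit of 2 left out 1 db/db salt and 1 db/+ barcode with 2 endothelial UMIs and 1 db/db salt barcode with 3. A limit of 8 added 1 db/db salt and 4 db/+ barcodes with 4 to 7, so both limits changed few barcodes. Scrublet marked no purer barcode, so leaving marked barcodes out could not change values of purer pericytes. Those unchanged values are among the ones counted as kept below. Over all settings, 437 values of counts, shares and lists kept within their bounds and 30 did not. Of the other values, nearly all of single genes, 1690 kept within their counting intervals, 124 moved beyond them without counting as a change of sign below, and 44 changed sign.

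The number of higher and lower genes in purer pericytes, 440 and 447, followed the limits. It was 244 and 257 with at least 4 of 8 pericyte genes, 804 and 852 with a mitochondrial limit of 5%, 153 and 166 at a mean of 100 CPM, 46 and 62 at 200 CPM, 2553 and 1896 with no filter beyond 1 UMI, 190 and 208 with 50 CPM added, 40 and 87 with purer and mixed barcodes together, and 48 and 72 with intervals apart. The share of pericytes was 3.43% in the db/db and 1% salt library and 3.56% in the db/+ library with at least 4 of 8 genes, and with no Myh11 UMI it was 1.67% for db/db salt and 2.08% for db/+ barcodes. It was 2.08% in the db/db and 1% salt library at the 5% mitochondrial limit. Purer pericytes in the db/db and 1% salt library were 1.33% with at least 4 of 8 genes and 0.652% with no Myh11 UMI.

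Medians of 4 lists left the range that order statistics of their members' ratios allow, which is wide for short lists. Immediate early and heat shock genes were at -0.0445 with at least 4 of 8 genes, -0.64 at the 5% mitochondrial limit and -0.0906 without barcodes rich in Acta2. TGF-beta and BMP genes were at 0.12 with at least 6 of 8 genes and -0.31 without barcodes rich in Acta2. At the 5% mitochondrial limit basement membrane genes were at -0.36 and fibrillar collagen and matrix genes at -1.03. Other medians moved within it, such as those of the cholesterol and chemokine lists without fibroblast-carrying barcodes (0.25 and -0.08, against 0.80 and 0.31). Over all settings run, the clock median lay between -1.72 and -0.27 (with no filter beyond 1 UMI), the interferon median between -0.79 and -0.37 and the antigen presentation median between -0.86 and -0.54.

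Among named genes at least 1.5-fold apart in purer pericytes, log2 ratios changed sign in 44 cases; sign changes of genes closer than that, such as Nrp1 at -0.0630 with purer and mixed barcodes together, are not listed, and the cause was not tested. With at least 4 of 8 genes these were Ccl11 at -1.10, Cyr61 at -0.25, Lamb1 at 0.24 and Ptn at 0.24, and with at least 6 of 8 Cilp at 1.61. At the 5% mitochondrial limit they were Ccl11 at -1.54, Cebpb at -0.32, Cebpd at -0.0591, Cyr61 at -2.53, Eln at -2.74, Fosb at -1.33, Gpx3 at -2.20, Gstm2 at -0.66, Hmgcs1 at -0.13, Hspa1a at -0.89, Mt1 at 0.15, Pdgfra at -2.75 and Sp100 at 0.36. With purer and mixed barcodes together they were Actn1 at 0.0682, Cd9 at 0.52, Fosb at -0.14, Gpx3 at -0.24, Gstt1 at 0.0379, Hist1h2bc at 0.23, Hmgb2 at -0.10, Igfbp4 at 0.52, Lamb1 at 0.19, Tagln at -0.51 and Taok1 at -0.0209. Without barcodes rich in Acta2 they were Ccl11 at -1.37, Cyr61 at -0.21, Gpx3 at -0.53, Hsd11b1 at -0.0788 and Hspa1a at -0.77. Without fibroblast-carrying barcodes they were Cebpd at -0.36, Cyr61 at -1.20, Fosb at -0.0817, Hspa1a at -0.19 and Igfbp4 at 0.74. After thinning to 3000 UMIs they were Bmpr1a at -0.11, Cebpd at -0.0470, Cilp at 0.87, Igfbp4 at 0.63 and Igfbp6 at 1.415. Dbp, Hlf, Nr1d1, Nr1d2, Postn, B2m and Bst2 kept their sign under every setting run. With 193970 UMIs in db/db and 1% salt purer pericytes and 212917 in db/+ ones, a gene at 50 CPM rests on about 10 UMIs, and differences in single low genes were not detectable at this depth.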

Other observations

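The values here were looked up after those above were seen and belong to no comparison. Gjc1, which encodes the gap junction protein connexin 45, had 73 UMIs in purer pericytes of the db/db and 1% salt library and 163 in those of the db/+ library, a log2 ratio of -1.01, and -0.44 in mixed pericytes. The sodium pump subunit gene Atp1b2 had 79 db/db salt and 46 db/+ UMIs (0.88; 0.29 in mixed pericytes). The calcium-binding protein gene Casq2 had 110 db/db salt and 73 db/+ UMIs (0.71), and the transcription factor gene Mef2c had 120 db/db salt and 78 db/+ UMIs (0.74).

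Among the interferon-inducible genes outside the lists, Ifi27l2a had 24 db/db salt and 60 db/+ UMIs in purer pericytes, with a log2 ratio of -1.13 and -1.01 in mixed pericytes, and Mndal had 26 db/db salt and 60 db/+ UMIs, with -1.02 and -0.62. Tppp3, a tubulin-binding protein gene, was higher in both strata, at 0.78 in purer and 0.96 in mixed pericytes, with 0.17 in endothelial and 0.30 in fibroblast barcodes.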
